A study of Mus musculus with 5 samples.

Results

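Transcripts of 10 subunit genes of voltage-gated calcium channels were followed in 5 RNA-seq libraries from the mouse pelvis-kidney junction. The genes were taken by name from the deposited table of 18044 genes, and all 10 were found in it: the T-type pore genes Cacna1g and Cacna1h, the L-type pore genes Cacna1c and Cacna1d, the R-type pore gene Cacna1e, the α2δ subunit gene Cacna2d1, and the β subunit genes Cacnb1, Cacnb2, Cacnb3 and Cacnb4. Wild-type C57BL/6 embryos were taken at E18.5, their junctions were pooled and dispersed with collagenase, and cells were sorted with an antibody against HCN3, a hyperpolarization-activated channel of pacemaker cells. The sort gave 2 libraries labelled HCN3-positive, which the submitters call urinary tract pacemaker cells, and 3 labelled HCN3-negative. All groups carried the same genotype and stage, and nothing in the labels says that the libraries came from separate pools of embryos, so p-values cover the spread among these libraries alone, part or all of which may be technical.

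Voltage-gated calcium channels open on depolarization and let calcium into the cell. A pore-forming α1 subunit sets the type: L-type channels open at strong depolarization and carry the calcium that makes smooth muscle contract, while T-type channels open near the resting potential and are known from pacemaker cells, where they help to bring the membrane to threshold. In L-, R-, P/Q- and N-type channels the pore binds a cytoplasmic β subunit and an extracellular α2δ subunit, which raise its number at the membrane and tune its gating, whereas T-type pores work without them. In the upper urinary tract, peristaltic contractions begin at the pelvis-kidney junction, where pacemaker and smooth muscle cells lie together.

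Reads assigned to genes numbered from 24588864 to 39034478 per library. Values are normalized counts, which are reads divided by the size factor of the library, and 1 read equalled a normalized count of 0.742 to 1.41. Hcn3 itself did not separate the labels, with 0 and 44.5 under the label HCN3-positive (samples 1 and 2) and 103, 32.2 and 41.9 under the label HCN3-negative (samples 1, 2 and 3). Values by label are given in this order throughout. The deposited table holds a comparison of its own, and in 100% of the rows with a finite fold above 0 that fold is the mean of 3 libraries, here set B (HCN3-positive 2, HCN3-negative 1 and HCN3-negative 3), over the mean of the other pair, here set A (HCN3-positive 1 and HCN3-negative 2). The table does not say which set is HCN3-positive. The sets differ from the labels by an exchange of HCN3-positive 2 and HCN3-negative 2. Between the sets Hcn3 did not overlap, with 0 and 32.2 in set A and 44.5, 103 and 41.9 in set B. Of all genes tested, 49.6% did not overlap either. The sets stood far apart: the summed normalized count of 10 macrophage marker genes was 321924 and 492920 in the libraries of set A and 764 to 1477 in set B, and that of 10 smooth muscle genes was 4545 to 6546 in set A and 24918 to 134383 in set B. The 10 genes are therefore given under both divisions, and every direction by label rests on the titles. In such bulk samples, fewer cells of a type and less RNA per cell cannot be told apart.

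The promoters of 3 of the 10 genes, chosen after their values were seen, are shown because these genes stood on opposite sides between the sets: Cacna2d1 and Cacnb3 were high in set B, and Cacna1d was high in set A. RefSeq starts (GRCm38.p6) matched 8 of the 10 genes, with 16 start sites, and Cacna1g and Cacna1h were not matched. For each gene the most upstream start without an annotated exon in the 250 bases before it was taken, and these 250 bases are printed 5′ to 3′ with GGGCGG on either strand, overlapping matches included, in capitals.
Cacna2d1 (chr5:15934441-15934690, plus strand): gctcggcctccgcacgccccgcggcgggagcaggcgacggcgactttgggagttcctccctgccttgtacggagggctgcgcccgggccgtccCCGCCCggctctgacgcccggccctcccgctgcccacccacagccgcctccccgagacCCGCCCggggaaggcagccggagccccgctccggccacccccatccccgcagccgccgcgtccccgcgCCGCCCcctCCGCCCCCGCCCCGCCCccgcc
Cacnb3 (chr15:98632078-98632327, plus strand): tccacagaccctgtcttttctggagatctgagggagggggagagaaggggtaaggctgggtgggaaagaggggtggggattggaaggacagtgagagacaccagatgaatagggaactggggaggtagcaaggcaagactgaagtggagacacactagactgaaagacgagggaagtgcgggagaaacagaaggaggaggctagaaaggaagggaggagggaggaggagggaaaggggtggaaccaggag
Cacna1d (chr14:30353487-30353736, minus strand): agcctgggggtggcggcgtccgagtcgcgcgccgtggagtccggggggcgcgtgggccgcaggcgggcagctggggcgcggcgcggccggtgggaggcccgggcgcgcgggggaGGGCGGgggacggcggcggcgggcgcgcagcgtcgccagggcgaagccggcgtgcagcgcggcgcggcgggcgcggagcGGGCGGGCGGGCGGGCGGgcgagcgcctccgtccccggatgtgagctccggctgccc
The windows of Cacna2d1 and Cacna1d held 6 and 5 matches and were 82.4% and 86.4% G or C, against a median of 52.4% over all 32851 windows of the same length, of which 32.7% held GGGCGG. The printed window of Cacnb3 held none and was 56% G or C, but that of its other start held 3 and was 70.4% G or C. For Cacna1d the window of the other start held 0 GGGCGG and 3 TATAAA and was 39.6% G or C. The contrast between the genes thus depends on the start shown. The printed windows of Cacnb3 and Cacna1d lie inside the annotated genes. Over all 16 windows of the 8 genes, 7 held GGGCGG, 1 held TATAAA and 0 held a CArG box, the sequence bound by serum response factor in smooth muscle genes. Those motifs were found in 12.4% and 1.47% of all windows. Which start the reads came from was not measured, and a match is no evidence that a site is used.

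Compared by label, the 10 subunit genes showed no difference that passed the test, and the groups overlapped for each of them. Of 10 genes, 0 rose and 0 fell with the positive label in limma at an adjusted p of 0.05, against 0% of all 16579 genes tested, and 10.8% of all genes had groups that did not overlap. At an unadjusted limma p under 0.05 stood 157 of all genes, and edgeR and DESeq2 called 0% and 0.0613% of all genes (0 and 10 genes), none of them a subunit gene. The fitted differences were positive in 4 genes and negative in 6, and their median was -0.69 on the log2 scale, against -0.03 over all genes.

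Cacna1g, which encodes the T-type pore CaV3.1, was at 76.1 and 613 (normalized counts) under the positive label and at 995, 57.7 and 1562 under the negative label. The lowest and the highest library thus both carried the negative label, and the fitted difference of -1.05 (SE 1.72, log2 of normalized count + 1, labelled positive minus negative) had an adjusted limma p of 1.00. Cacna1h, the T-type pore CaV3.2, stood at 189 and 298 against 491, 112 and 173, and its fitted difference was 0.16 (SE 0.80). It varied 4.38-fold from the lowest to the highest library, against 27.1-fold for Cacna1g, so the T-type pair did not share 1 pattern of levels.

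Cacna1c encodes CaV1.2, the L-type pore of smooth and cardiac muscle. It had 8.46 and 107 under the positive and 397, 48.8 and 175 under the negative label, and the first of these values rests on 6 reads. HCN3-positive 1 was the lowest library and HCN3-positive 2 lay between the negative ones, and the difference of -2.25 (SE 1.46) had an adjusted limma p of 1.00. Cacna1d, the L-type pore CaV1.3 of sinoatrial and endocrine cells, had 451 and 234 against 233, 371 and 153. HCN3-positive 1 was the highest library and HCN3-positive 2 the third highest, and the difference was 0.46 (SE 0.63). Cacna1e, the R-type pore CaV2.3, was low: it had 0 and 8.90 against 36.5, 0 and 38.1, where 3 reads equal 2.23 to 4.23. The values above 0 rest on 12, 41 and 41 reads.

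Cacna2d1 encodes the α2δ-1 subunit, an extracellular partner of the pore and the binding site of gabapentin. Its values were 9.87, from 7 reads, and 423 under the positive label and 689, 118 and 336 under the negative one. The library labelled HCN3-positive 1 was the lowest of all and HCN3-positive 2 the second highest. Of the β subunits, which bind the pore from the cytoplasm, Cacnb3 had 186 and 955 against 994, 219 and 674, and Cacnb1, the β subunit also found in skeletal muscle, had 28.2 and 375 against 306, 92.1 and 660. Cacnb2, the main cardiac β subunit, had 140 and 223 against 301, 18.9 and 124. Cacnb4, best known from the brain, had 351 and 148 against 74.8, 120 and 166. In the 4 β genes the labels overlapped, and the fitted differences ran from -1.35 for Cacnb1 to 0.99 for Cacnb4.

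**Figure D1:**
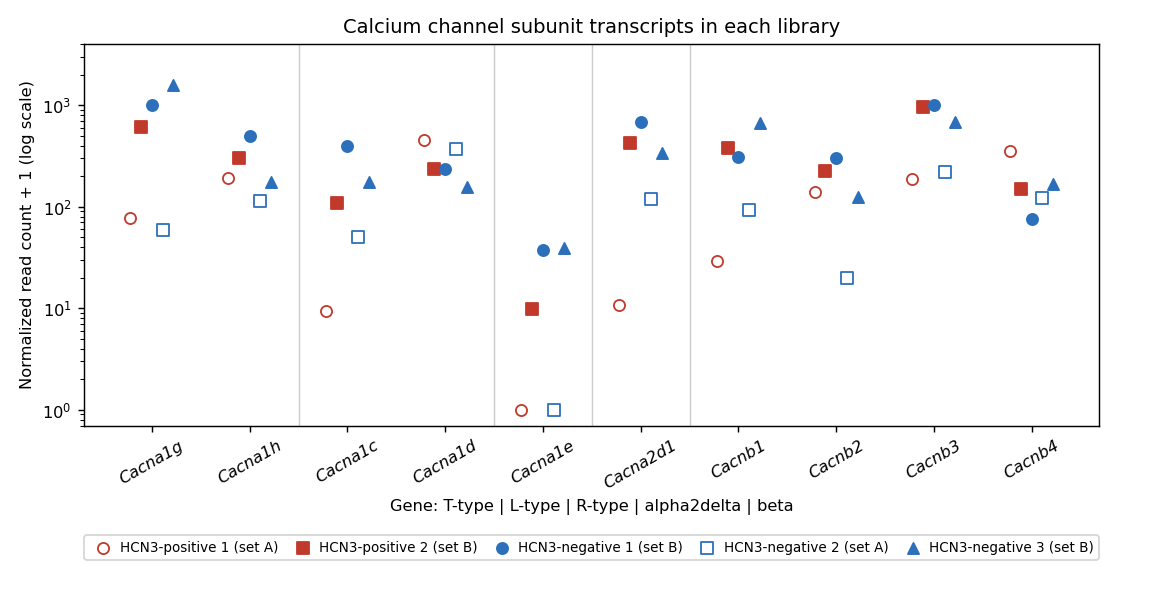
Normalized read count plus 1 (vertical axis, log scale) of the 10 calcium channel subunit genes (horizontal axis, grouped by role) in each of the 5 libraries. Red points are libraries labelled HCN3-positive and blue points those labelled HCN3-negative, open points belong to set A and filled points to set B. Cacna1g lay at 57.7 and 76.1 in the open points and from 613 to 1562 in the filled ones, while red and blue overlapped for each gene.

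The labels were also compared within each set, since each set holds both labels. Cacna1c was lower under the positive label in both: 8.46 against 48.8 in set A, and 107 against 397 and 175 in set B. Cacna1d was higher in both: 451 against 371 in set A, and 234 against 233 and 153 in set B, of which the closest pair was nearly even. These 2 of 10 genes stand beside 28.9% of all genes tested that held 1 direction within both sets in this way. With the set as a term beside the label, a fit chosen after the data were seen, limma again called 0 of the 10 genes and 0 of all genes, and the differences of Cacna1c and Cacna1d were -1.77 and 0.30.

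Between the sets of the deposited table, 5 of the 10 subunit genes were higher in set B and 0 were lower in limma, while edgeR called 3 and DESeq2 6 of them, all higher. Those higher were the T-type pore Cacna1g, the R-type pore Cacna1e, the α2δ gene Cacna2d1 and the β genes Cacnb1 and Cacnb3. Cacna1e had 0 reads in both libraries of set A and entered the test only through set B, so its direction was built into the filter. With a minimum mean of 50, which left Cacna1e out, limma called 4 of the subunit genes. Over all genes 9.88% were called higher and 10.6% lower in set B by limma, and edgeR and DESeq2 called 7.08% and 14.5% of all genes higher. The median difference of the 10 genes was 2.56 (log2, set B minus set A), against 0.07 over all genes. The authors' deposited table gives an adjusted p under 0.05 to 4 of the 10 genes, all higher in set B, where 6.09% of all genes were so called. The libraries of the sets did not overlap for 7 of the 10, 6 above and 1 below, as they did not for 49.6% of all genes.

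Among the pore genes with reads in each library, Cacna1g had the largest difference between the sets. It averaged 66.9 ± 13.0 (SD, n = 2) in set A and 1057 ± 477 (SD, n = 3) in set B, a 15.8-fold difference. The fitted difference was 3.87 (SE 0.50), with an adjusted limma p of 0.00301, and the authors' deposited table gives an adjusted p of 0.000636. It passed with each library left out in turn. For the other T-type pore, Cacna1h, the sets overlapped, since the library labelled HCN3-positive 1 of set A (189) lay above HCN3-negative 3 of set B (173). Its difference of 1.01 (SE 0.59) had an adjusted limma p of 0.291.

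The L-type pores had opposite orders between the sets, and neither passed. Cacna1c averaged 28.6 ± 28.5 in set A and 226 ± 152 in set B, with a difference of 3.18 (SE 0.96) and an adjusted limma p of 0.0604. It did pass in DESeq2 (adjusted p of 0.0107), but not in edgeR (0.109), and the authors' deposited table gives 0.188. With any library of set B left out it did not pass either (adjusted limma p of 0.106 to 0.192). Without the library labelled HCN3-negative 2, which leaves 1 library in set A, the difference was 4.37. Cacna1d averaged 411 ± 56.8 in set A and 207 ± 46.4 in set B, with a difference of -1.005 (SE 0.43) and an adjusted limma p of 0.160. Its gene shares 589 exonic bases with Chdh, a choline-oxidizing enzyme gene on the opposite strand, and reads from the pair cannot be told apart there because the library chemistry is not stated to keep strand. Chdh stood at 639 and 686 in set A and at 516, 217 and 241 in set B, and its part in the level of Cacna1d was not tested.

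Cacna1e had 0 reads in both libraries of set A and a mean of 27.9 ± 16.4 (SD, n = 3) in set B, at least 7.37-fold higher against a floor of 3 reads per library. The adjusted limma p was 0.0300, but the gene entered the test only through its reads in set B. It missed the threshold with any 1 library left out (0.0591 to 0.0946) and with a pseudocount of 5 (0.0556), and the authors' deposited table gives 0.230.

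Among the accessory genes, Cacnb3 separated the sets with the least spread. Its mean was 202 ± 23.0 in set A and 875 ± 175 in set B, with a difference of 2.09 (SE 0.35) and an adjusted limma p of 0.00769. It still passed with any library of set B left out. Without HCN3-positive 2 or HCN3-negative 1 this was narrow (adjusted limma p of 0.0465 and 0.0482). Cacnb1 averaged 60.2 ± 45.2 and 447 ± 187 (difference 3.03, SE 0.68, adjusted limma p of 0.0221), and Cacna2d1 averaged 63.8 ± 76.2 and 482 ± 184 (difference 3.68, SE 1.01, adjusted limma p of 0.0433). Both were sensitive to single libraries: each lost the call when any library of set B was left out. The adjusted limma p was then 0.0637 to 0.0824 for Cacnb1 and 0.0823 to 0.150 for Cacna2d1. Without HCN3-positive 1 or HCN3-negative 2, which leaves 1 library in set A, the differences were 2.19 and 3.86 for Cacnb1, and 1.96 and 5.41 for Cacna2d1. In edgeR Cacnb1 passed (adjusted p of 0.0418) and Cacna2d1 did not (0.111). DESeq2 called Cacnb1 and Cacna2d1 (adjusted p of 0.000212 and 0.00913), and the authors' deposited table gives them 0.00733 and 0.00355. Cacnb2 and Cacnb4 did not pass, with differences of 1.95 (SE 0.93) and -0.74 (SE 0.69). Cacnb2 was lowest in HCN3-negative 2 (18.9), while the highest value of Cacnb4 lay in HCN3-positive 1 (351), both libraries of set A.

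**Figure D2:**
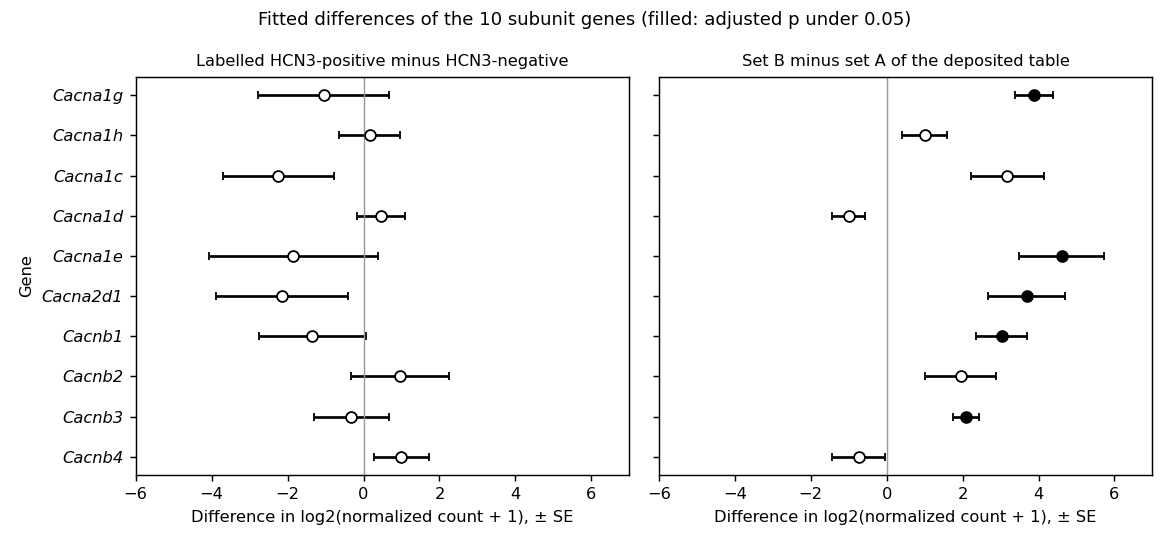
Fitted difference in log2(normalized count + 1) of each of the 10 genes (vertical axis), with its standard error as bars (horizontal axis). The left panel gives labelled HCN3-positive minus labelled HCN3-negative and the right panel set B minus set A; filled points had an adjusted limma p under 0.05. No point is filled on the left and 5 are filled on the right, with Cacna1g at 3.87. Cacna1e is among the 5 and entered the test only through its reads in set B.

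Per length, the pore genes changed their order between the sets. As normalized counts per kilobase of annotated exon, and as a share of the 10 pore genes in the table, Cacna1d took 48.1% and 39.8% in HCN3-positive 1 and HCN3-negative 2 of set A, and 14.2%, 9.18% and 5.79% in HCN3-positive 2, HCN3-negative 1 and HCN3-negative 3 of set B. Cacna1g took 10.1% and 7.72% in set A and 46.3%, 48.8% and 73.3% in set B. The leading pore gene was thus Cacna1d in both libraries of set A and Cacna1g in the 3 libraries of set B. Cacna1c never exceeded 9.31% of the pore genes, a share it reached in HCN3-negative 1. With coding length in place of exon length that share was 17.2%, and the leading gene of each library was the same.

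The sum of the T-type pores Cacna1g and Cacna1h over that of the L-type pores Cacna1c and Cacna1d gives the same contrast in 1 value. As log2 of the ratio of levels per kilobase of exon it was -0.43 and 1.95 under the positive label, and 1.99, -0.88 and 3.07 under the negative label. The L-type sum was the larger in both libraries of set A, and the T-type sum in the 3 of set B. It leaves out the L-type pore Cacna1f, which took 5.43% and 16.4% of the pore genes in HCN3-positive 1 and HCN3-negative 2. Cacna1c took 0.54% and 3.12% there. In set B Cacna1f took at most 0.243%. From normalized counts without a length the ratios were -0.79 and 1.42, and 1.24, -1.30 and 2.40, with the same signs. Within the L-type pair, Cacna1d had 35.7 and 29.4 per kilobase of exon in HCN3-positive 1 and HCN3-negative 2, where Cacna1c had 0.399 and 2.30. In set B the gap was narrower: 18.6 against 5.04 in HCN3-positive 2, 12.2 against 8.25 in HCN3-negative 3, and nearly even levels in HCN3-negative 1. By coding length Cacna1c led the pair in HCN3-negative 1 and HCN3-negative 3. It took 17.2% and 7.79% of the pore genes there, against 10.5% and 7.12% for Cacna1d. In normalized counts it led there too, with 397 against 233 and 175 against 153. In the other libraries Cacna1d led by either length. Annotated exons of Cacna1c sum to 21191 bases and those of Cacna1d to 12621.

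Cacnb3 was the leading β gene per kilobase in each of the 5 libraries, with 45.3% of the β total in HCN3-positive 1 and 49.2% to 71.5% in the others. By coding length Cacnb4 led in HCN3-positive 1, with 51.7%. Cacnb4 took 38.3% and 14.9% of the β total per kilobase of exon in set A and 2.41% to 5.41% in set B. The β total itself was 89.7 and 102 per kilobase in set A and 342 to 354 in set B. Of the α2δ genes, Cacna2d1 led in HCN3-positive 1, HCN3-negative 2 and HCN3-negative 3, with 53.4%, 46.2% and 54.3%, and Cacna2d3 in HCN3-positive 2 and HCN3-negative 1, with 44.1% and 59.8%. By coding length Cacna2d1 led in HCN3-positive 2 too, with 52.3% against 36.8% for Cacna2d3.

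**Figure D3:**
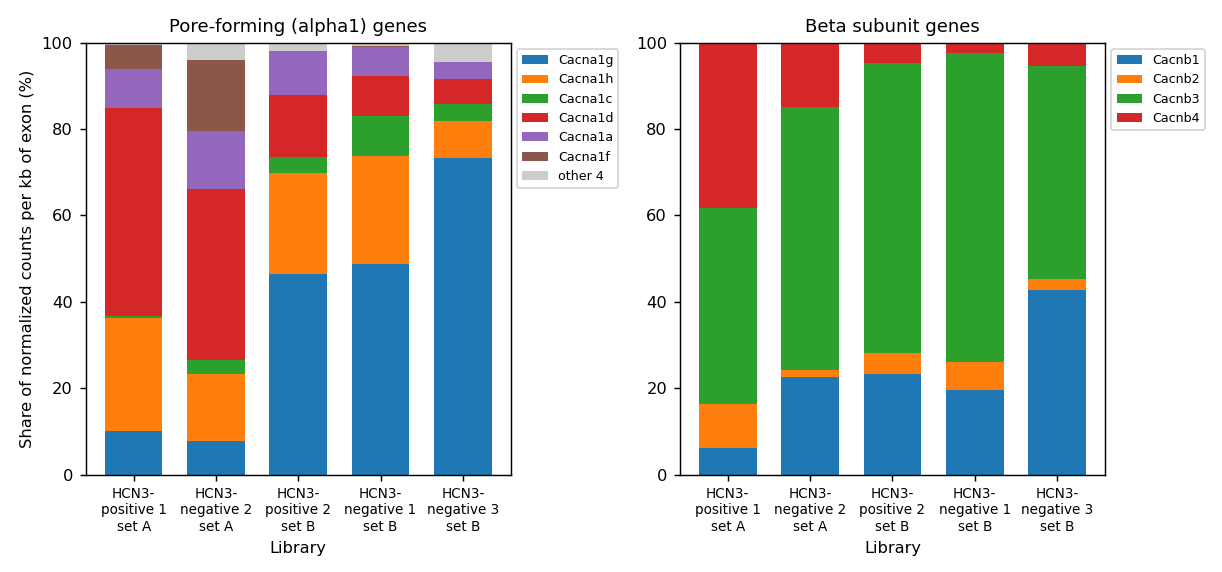
Share of each gene (vertical axis, percent of normalized counts per kilobase of exon) among 10 pore-forming genes (left) and 4 β subunit genes (right) in each library (horizontal axis). The libraries of set A are the first pair of bars in each panel. Cacna1d fills 48.1% and 39.8% of the pore bars of set A, and Cacna1g 46.3% to 73.3% of those of set B.

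The order of the levels per kilobase of exon differed between the sets, so it is given within each. In set A the means ran Cacnb3 (50.5), Cacna1d (32.6), Cacnb4 (26.3), Cacna1h (15.4), Cacnb1 (13.3), Cacna1g (6.60), Cacnb2 (5.99), Cacna2d1 (5.13), Cacna1c (1.35) and Cacna1e (0). In set B they ran Cacnb3 (218), Cacna1g (104), Cacnb1 (98.7), Cacna2d1 (38.9), Cacna1h (32.9), Cacna1d (16.4), Cacnb2 (16.3), Cacnb4 (14.4), Cacna1c (10.7) and Cacna1e (1.10). In both sets the libraries placed Cacnb3 above the next gene and Cacna1e below the one before it without overlap, and in set B Cacnb1 also lay above Cacna2d1. The other neighbours overlapped in their ranges over the libraries of a set.

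The rest of the family was searched with a list of 16 further subunit genes, of which 10 were in the table and 8 were tested. None passed by label in limma, and between the sets 1 passed as higher and 1 as lower in set B, beside 9.88% and 10.6% of all genes tested, which is near the background. Cacna1f, an L-type pore known from the retina, was the one lower: it had 36.6 and 110 in set A and 0, 4.45 and 0 in set B (difference -5.20, SE 1.25, adjusted limma p of 0.0287). It entered the test only through its reads in set A, with a mean of 73.3 there and 1.48 in set B, so a difference in this direction was built into the filter. The authors' deposited table gives it an adjusted p of 0.0110. Cacna2d3, the α2δ-3 gene, was the one higher, with 1.41 (1 read) and 35.5 in set A and 314, 868 and 101 in set B (difference 5.02, SE 1.37, adjusted limma p of 0.0433), and the authors' deposited table gives 0.225. Cacna2d2 had 4.23 and 55.5 in set A and 88.4 to 92.0 in set B, and the γ subunit gene Cacng4 had 0 and 14.4 against 30.3 to 72.0, and neither passed. The P/Q-type pore Cacna1a varied least, from 77.5 to 154, with overlapping sets.

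Of 24 regulators of these channels, 23 were tested, 0 passed by label, and between the sets 1 was higher and 2 were lower in set B, beside 9.88% and 10.6% of all genes tested. Rem1, a small GTPase of the RGK family that binds β subunits and inhibits high-voltage-activated channels, was higher: 131 and 133 in set A and 883, 853 and 660 in set B (difference 2.57, SE 0.36, adjusted limma p of 0.00394). Gem, another RGK inhibitor, had 145 and 178 against 304, 885 and 588, without passing (adjusted limma p of 0.0609). Among those lower in set B was Camk2d, a calmodulin-dependent kinase that facilitates L-type current, at 6316 and 6421 against 2173 to 2272 (difference -1.51, SE 0.17, adjusted limma p of 0.00179). Stac and Stac2, adaptors that bind the pore, had differences of 1.82 and 2.95 and did not pass.

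Markers of several cell types differed between the sets, as did 5 of the 10 subunit genes, among them Cacna1e, which entered the test only through set B. Of 10 smooth muscle genes 9 passed as higher in set B and 10 of 10 did not overlap, of 8 stromal and pericyte genes 8 passed as higher, of 8 endothelial genes 8, and of 7 podocyte genes 5. Of 10 macrophage genes 10 passed as lower in set B. Over all genes tested 9.88% passed as higher and 10.6% as lower in set B, and 49.6% did not overlap. None of the 6 epithelial and none of the 5 erythroid genes passed in limma between the sets. Neuronal genes were low in each library, with a sum of 152 to 584 over 10 genes. Of 9 tested, 1, Rbfox3, passed as higher in set B, which is near the share over all genes. Of 6 skeletal muscle genes in the table Ckm and Acta1 passed as higher, and the sum was 134 and 211 in set A and 964 to 2186 in set B. Stromal and pericyte genes summed to 3446 and 3727 in set A and to 28601 to 68315 in set B, and endothelial genes to 7264 and 8699 against 31821 to 120201. Podocyte genes summed to 9556 and 15129 against 39501 to 330779, and epithelial genes to 22411 and 39707 against 11276 to 33954. Erythroid genes summed to 93.0 and 1116 against 771 to 53132. Of all these lists, 1 gene, the skeletal muscle myosin Myh8, had 0 reads in both libraries of set A, and none had 0 reads throughout set B. The part of these cell types in the levels of the subunit genes was not tested. By label 0 genes of these lists passed, and the sums of each list but 1 overlapped: epithelial genes summed to 39707 and 33954 under the positive label and to between 11276 and 28743 under the negative label.

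Within set B the subunit genes did not all follow the smooth muscle markers. The smooth muscle sum was 97929 in HCN3-positive 2 and 134383 in HCN3-negative 1, but 24918 in HCN3-negative 3. Cacna1g (1562) and Cacnb1 (660) were highest in HCN3-negative 3, which also held the highest podocyte, endothelial and erythroid sums. Cacna1c (397), Cacna1h (491), Cacna2d1 (689), Cacnb2 (301) and Cacnb3 (994) were highest in HCN3-negative 1.

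**Figure D4:**
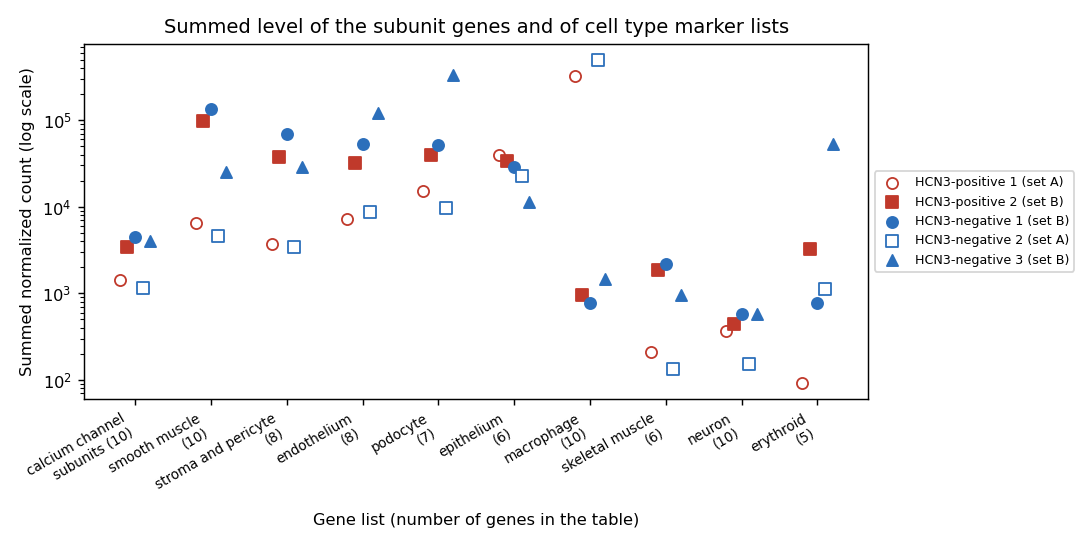
Summed normalized count (vertical axis, log scale) of the 10 subunit genes and of 9 cell type marker lists (horizontal axis) in each library. Red is labelled HCN3-positive and blue labelled HCN3-negative, open points belong to set A and filled points to set B. The subunit genes summed to 1156 and 1439 in set A and to 3386 to 4519 in set B, and the macrophage list to 321924 and 492920 in set A.

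The genes whose profile over the 5 libraries came closest to a member were found among 12946 genes with a mean of at least 50, by the root mean square difference of log2 levels centred on each gene's mean. For Cacna1c they were Tnfsf15 (0.27), Il33 (0.27) and Airn (0.30). For Cacna1h they were Ppp1r12a (0.09), Lrrc48 (0.12), Ccdc39 (0.13) and Lbh (0.14), and for Cacna2d1 they were Spag4 (0.11), Boc (0.19), Rhbdl3 (0.23) and Rasgef1a (0.24). Ppp1r12a, the targeting subunit of myosin phosphatase, had 1893 and 1143 in set A and 2564, 4541 and 1731 in set B. Boc, a co-receptor for hedgehog ligands, had 40.9 and 385 in set A and 1435, 2375 and 1566 in set B. The values describe likeness only.

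The genes lie on 8 chromosomes (GENCODE M21, GRCm38, the assembly also called mm10, which the submitters' processing notes name). Cacna1g (chromosome 11, 94408391 to 94474198, minus strand) and Cacnb1 (chromosome 11, 98001508 to 98023034, minus strand) share a chromosome, as do Cacnb2 (chromosome 2, 14603088 to 14987908, plus strand) and Cacnb4 (chromosome 2, 52428320 to 52676831, minus strand). Cacna1c lies on chromosome 6 (118587240 to 119196418, minus strand), Cacna1d on chromosome 14 (30039939 to 30491455, minus strand), Cacna1h on chromosome 17 (25374285 to 25433783, minus strand) and Cacna1e on chromosome 1 (154390731 to 154884501, minus strand). Cacna2d1 lies on chromosome 5 (15934691 to 16374511, plus strand) and Cacnb3 on chromosome 15 (98630840 to 98644529, plus strand). Of the genes in the table, only Chdh shared exonic bases with 1 of the 10.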

How the data were processed

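RNA of sorted cells was sequenced in 5 libraries, placed in groups by their titles. The submitters' processing notes name the build mm10, HTSeq 0.6.1p2, TopHat2 2.0.11 and DESeq 1.18.0 (counting annotation: not given in the sources used here). In 1 table the authors deposited a signal per gene and library, the read count divided by a size factor, and per the file headers also a ratio (fold), its log2 and p-values; 2 columns of group means were not used. Each column divided by its smallest nonzero value gave whole reads for 100% of nonzero values (tolerance 0.01); 3 counter rows, 23.2% to 32.8% of reads, were left out. Libraries sharing a label differed by more than sampling noise (chi-square of 187 to 717 per degree of freedom).

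The main test was limma 3.58.1 (R 4.3.3, trend) on log2(normalized count + 1) over the 16579 genes whose mean reached 5, Benjamini-Hochberg adjusted over all of them, threshold 0.05. This scale understates differences of low genes. The sets of the deposited comparison were found by matching its fold with ratios of library means (tolerance 0.01); the next best division matched 3.23% of rows. edgeR 4.0.16 and DESeq2 1.42.0 on recovered reads, TMM scaling, other filters and pseudocounts, a replicate block and leaving out libraries were alternatives. The script was tested on simulated data. Floors of 3 reads cover counting error only. Lengths are unions of annotated exons or coding sequence (GENCODE M21). The 10 genes and all lists were chosen with earlier results of these data known. Genes named beyond the 10 were, per list, up to 6 with the smallest p and a mean of at least 20, the 4 most similar profiles of Cacna1c, Cacna1h and Cacna2d1, and, chosen after their values were seen, Chdh, Rbfox3, Ckm, Acta1 and Myh8. Some genes these rules would name are not reported here. Cbarp and Adgre1 were matched by the older names Dos and Emr1.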

Additional observations from a re-analysis of the deposited data

How the results depend on the processing

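By label, 0 of the 10 genes passed in each of the 13 alternatives. Over all genes the count by label was 0 except for 10 in DESeq2. The sign of Cacna1h by label turned in edgeR (-0.0582) and DESeq2 (-0.0866), and that of Cacnb3 with the set as a term (0.0278), an alternative added after seeing the data. With 1 library left out, differences by label ran from -2.55 to 0.45 for Cacna1g, -0.30 to 0.76 for Cacna1h, -0.0151 to 0.926 for Cacna1d, -4.80 to 0.49 for Cacna2d1, -3.19 to 0.50 for Cacnb1, -0.13 to 1.83 for Cacnb2, -1.50 to 0.86 for Cacnb3, -4.00 to -0.49 for Cacna1c, -3.61 to -0.20 for Cacna1e and 0.37 to 1.61 for Cacnb4. Without the library labelled HCN3-positive 1 the sign turned for Cacna1g, Cacna1d, Cacna2d1, Cacnb1 and Cacnb3.

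Between the sets, 5 of the 10 genes passed, among them Cacna1e, and 4 with a minimum mean of 50, which left Cacna1e out. In edgeR 3 passed, in DESeq2 6, and 2 with any 1 library of set B left out. Cacna1g and Cacnb3 passed in each of the 12 fits; Cacna1h, Cacna1d, Cacnb2 and Cacnb4 in none. Over all genes 3396 passed, and 1508 to 2901 with 1 library left out (1508, 1892 and 1787 without HCN3-positive 1, HCN3-positive 2 and HCN3-negative 1). Cacnb4 ran from -1.51 to 0.0296, Cacnb2 from 0.54 (without HCN3-negative 2) to 3.36 (without HCN3-positive 1), and Cacna2d1 from 1.96 to 5.41 and Cacna1c from 1.98 to 4.37, each lowest without HCN3-positive 1 and highest without HCN3-negative 2. These fits hold fewer samples. A left-out library can leave 1 sample on a side, which is then assumed to vary like the others.

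The sample numbers 1 and 2 occur under both labels, but nothing says that they pair samples. With a replicate block limma called 0 of the 10 genes and 0 of all genes by label, and the deviations of same-numbered libraries correlated at -0.53 and -0.69 across genes. Same-numbered libraries lie in opposite sets, so pairing by number and the difference between the sets cannot be told apart in these correlations. Cacna1e could not be tested with a minimum mean of 50. Low reads limit Cacna1e, and Cacna1c and Cacna2d1 in HCN3-positive 1. Dividing by coding length moved the T- to L-type balance by less than the spread within a label.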
